A study of Mus musculus with 2 samples.

Results

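Fgf2, Bdnf, Gdnf and Gfra3 are 3 genes for secreted growth factors and 1 gene for a receptor, and they are 4 of the 263 genes on an oligonucleotide array for neurogenesis and neural stem cell biology. They were taken by gene symbol, each has 1 spot, and the rule that takes them uses no measured value. The array was hybridised with RNA from the subventricular zone (SVZ), the germinal layer along the lateral ventricles of the mouse brain, microdissected from fresh slices at postnatal day 8. One sample came from wild-type mice and the other from CNP-hEGFR mice, a transgenic line that carries a human EGF receptor under the promoter of Cnp, a gene of the oligodendrocyte lineage. With 1 array per genotype there is no spread between replicates. The series' design text speaks of 3 RNA samples with repeat assays, and how these relate to the 2 arrays is not given in the sources used here. No value below was tested, 2-fold is used as a size only, and precision is limited by having 1 array on each side. In whole tissue, a change in the number of cells and a change of RNA per cell cannot be told apart.

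These genes belong to 3 families of growth signals. FGF2 acts through FGF receptor tyrosine kinases and is the mitogen, besides EGF, with which neural stem cells are commonly grown. BDNF is a neurotrophin. It acts through the receptor kinase TrkB, encoded by Ntrk2, and the low-affinity receptor encoded by Ngfr, and it supports the survival and maturation of newborn neurons. GDNF binds the membrane-anchored co-receptor GFRA1, which presents it to the receptor kinase RET. GFRA3 is the related co-receptor that pairs with artemin, the product of Artn.

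The 3 ligand spots were among the bright spots on both arrays and Gfra3 was not. Intensities are averages over the spot in scanner units, with no background subtracted and an upper limit of 65535. The Fgf2 spot read 50255 in wild-type and 62848 in CNP-hEGFR, 76.7% and 95.9% of that limit. Bdnf read 34111 and 51832, or 52.0% and 79.1% of it. Gdnf read 16518 in wild-type and 25221 in CNP-hEGFR, and Gfra3 read 4579 and 12272. Each of the 4 spots was thus brighter on the CNP-hEGFR array, and the order from Fgf2 down to Gfra3 was the same on both. Nearly all genes were brighter there. Of 254 genes whose deposited values follow from one another, only 6 had a lower intensity in CNP-hEGFR.

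**Figure D1:**
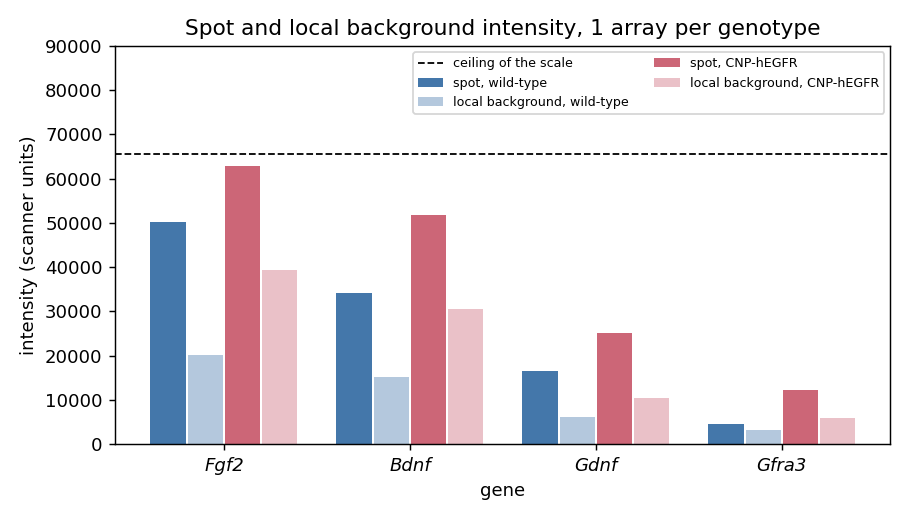
Spot intensity (solid bars) and local background (pale bars) of the 4 genes on the wild-type and the CNP-hEGFR array, in scanner units from 0, with the limit of the scale as a dashed line. The Fgf2 spot on the CNP-hEGFR array, at 62848, stands just under the limit of 65535, and every background bar is higher on that array.

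Ranks place these spots within an array without any scaling. They order spots and not transcripts, because probes differ in how strongly they bind. Among 263 gene spots, Fgf2 ranked 9 in wild-type and 10 in CNP-hEGFR, and Bdnf ranked 17 on both. Gdnf went from rank 37 to rank 59, while Gfra3 went from 112 to 103. Fgf2 and Bdnf therefore held their places, Gdnf stood lower in CNP-hEGFR, and Gfra3 somewhat higher.

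The deposited present calls covered Fgf2, Bdnf and Gdnf on both arrays and Gfra3 in CNP-hEGFR only. That is 3 of 4 genes in wild-type, where 34.6% of all genes were called present, and 4 of 4 in CNP-hEGFR, where 39.2% were. The 2 blank spots, which carry no probe, set a second mark. On the wild-type array they read 8478 and 27046, and on the CNP-hEGFR array 22727 and 39739. Fgf2 and Bdnf were brighter than both blanks on both arrays, as were 7.22% of all genes. Gdnf lay between the blanks on each array, and Gfra3 lay below both of them on each array, including the array on which it was called present. The deposited layout sheets mark the 4 genes in the same way as the call table. None of the 4 spots carried the deposited warning for bleeding, the spread of signal from a saturated spot.

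The arrays set the CNP-hEGFR SVZ against the wild-type SVZ. Before any scaling, the CNP-hEGFR spot over the wild-type spot was 1.25-fold for Fgf2, 1.52-fold for Bdnf, 1.53-fold for Gdnf and 2.68-fold for Gfra3. The median gene was 1.99-fold brighter, so the 3 ligands lay below the typical gene and the receptor above it. Ranked from the largest fold down among the 254 genes whose deposited values follow from one another, Gfra3 came at 48, Gdnf at 183, Bdnf at 184 and Fgf2 at 223. This order holds under any scaling by 1 factor per array.

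**Figure D2:**
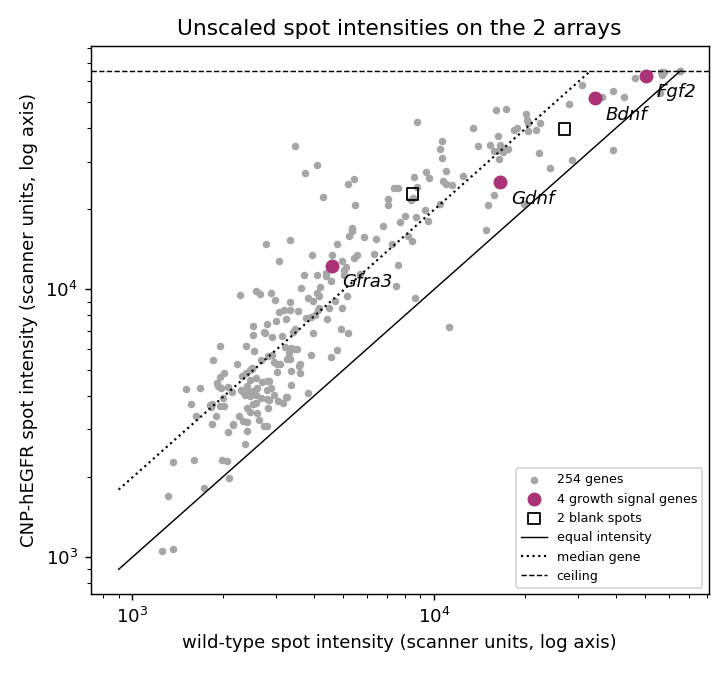
Unscaled spot intensity in CNP-hEGFR against wild-type for 254 genes, both axes logarithmic in scanner units, with the 4 growth signal genes enlarged and the 2 blank spots as squares. Fgf2, Bdnf and Gdnf lie between the line of equal intensity and the dotted line of the median gene (1.99-fold), and Gfra3 lies above the dotted line.

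The size that a scaled ratio takes depends on the reference spots. The reference used for the ratios below was the average of 3 Gapdh and 3 Ppia spots, taken on each array, and it was 1.11-fold higher in CNP-hEGFR. In wild-type, 3 of these 6 spots read 63663, 64101 and 65465, close to the ceiling, and they were brighter in CNP-hEGFR by at most 1.02-fold. The other 3 were brighter by 1.15-fold to 1.39-fold. The 1.15-fold one, a Gapdh spot, was called present on neither array and was dimmer than its own background on both. The Ppia spots away from the ceiling, called present on both arrays, were brighter by 1.38-fold and 1.39-fold. That is more than the unscaled 1.25-fold of Fgf2 and less than the folds of Bdnf and Gdnf. On this scale the log2 ratio of CNP-hEGFR over wild-type was 0.17 for Fgf2, 0.45 for Bdnf and 0.45 for Gdnf. Gfra3, not called present in wild-type, has only a bound, at least 2.16-fold higher in CNP-hEGFR, or 1.11 on the log2 scale. The bound takes the dimmest present gene of the wild-type array (5090) in place of the Gfra3 spot. Thus 1 of the 4 genes was at least 2-fold higher, where the share was 49.5% among the 101 genes that had a value (a ratio or bound). With each array scaled to its median gene spot, 0 of 4 passed 2-fold and the share over genes was 8.08%. The log2 ratios were then -0.80 for Fgf2, -0.52 for Bdnf, -0.52 for Gdnf and a bound of 0.14 for Gfra3, so the direction of all 3 ligands turned with the choice of scaling. Gfra3 turned with another choice, to -0.02 without a floor when control and blank spots set the scale, where the value was -1.12 for Fgf2. In the authors' deposited table the ratio of normalized values was 1.08 for Fgf2, 1.33 for Bdnf, 1.36 for Gdnf and 2.90 for Gfra3. The normalization spots behind it include the same Ppia spots. They also include B2m and Hsp90ab1 spots that read 65474, 65520 and 65480 in wild-type, close to the ceiling. An Rps27a spot among them was called present on neither array.

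**Figure D3:**
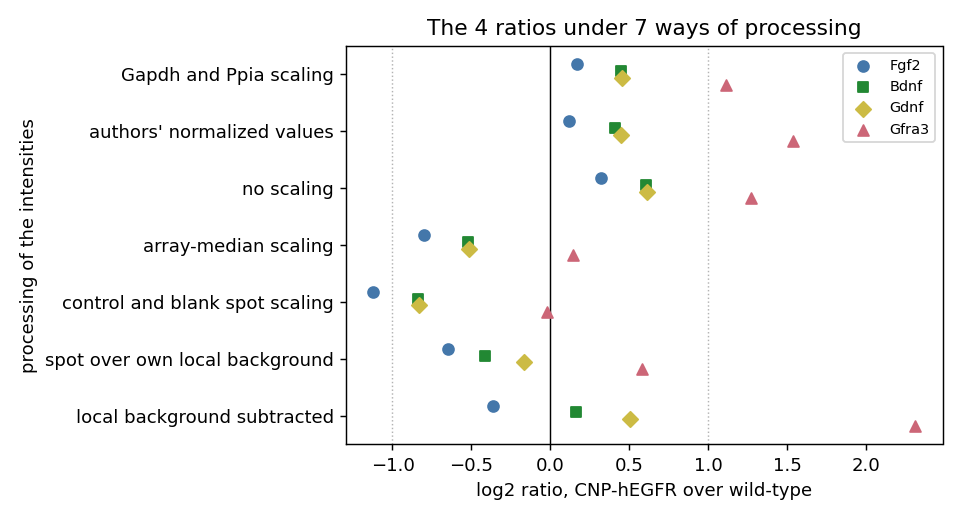
Log2 ratio of CNP-hEGFR over wild-type for the 4 genes (points) under 7 ways of processing the intensities (lines of the plot), with 0 as a solid line and 2-fold as dotted lines. Fgf2, Bdnf and Gdnf lie right of 0 with Gapdh and Ppia scaling and left of it with array-median scaling, and Gfra3 is the highest of the 4 in every line; its values with Gapdh and Ppia scaling, no scaling and array-median scaling are bounds.

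Each spot was also set against the background measured beside it. The local background of all 4 spots was higher in CNP-hEGFR, 1.96-fold at Fgf2, 2.02-fold at Bdnf, 1.71-fold at Gdnf and 1.79-fold at Gfra3, against 1.87-fold at the median gene. For Fgf2 the spot stood 2.50 times above its background in wild-type and 1.59 times in CNP-hEGFR. Bdnf went from 2.26 to 1.70 times and Gdnf from 2.72 to 2.43 times. Gfra3 went the other way, from 1.39 to 2.07 times its background. By this measure the 3 ligand spots stood out less in CNP-hEGFR and the receptor spot more, where 57.9% of genes stood out more. At Fgf2 the local background itself was 20127 in wild-type and 39444 in CNP-hEGFR. At the 4 spots that adjoin Fgf2 the local background was at most 6291 in wild-type and 11733 in CNP-hEGFR. Whether a bright spot adds to its own background was not tested. The rank of spot over background went from 28 to 75 of 263 for Fgf2 and from 43 to 68 for Bdnf, while Gdnf went from 20 to 23 and Gfra3 from 80 to 47.

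The room left under the ceiling was set beside the ratios. With the wild-type spot where it was, Fgf2 could not have read more than 1.30-fold higher and Bdnf not more than 1.92-fold higher, while Gdnf had room for 3.97-fold. Neither spot was itself at the limit on either array. There were 12 genes with a wild-type spot above 32767.5, the middle of the scale, and under 99% of the limit, and their unscaled fold ran from 0.847 to 1.52 with a median of 1.24. Fgf2 was the sixth highest of the 12 and Bdnf, the dimmest of them in wild-type, the highest. For all 12 the ratio of spot to own background was lower in CNP-hEGFR, with medians of 2.30 times in wild-type and 1.64 times in CNP-hEGFR. With the local background subtracted, Fgf2 went from 30129 to 23404, Bdnf from 19015 to 21272, Gdnf from 10455 to 14839 and Gfra3 from 1280 to 6352. Fgf2 was the 1 gene of the 4 whose signal above background was lower in CNP-hEGFR. Among 254 genes whose deposited values follow from one another, that signal was higher in CNP-hEGFR for 164. The part of the ceiling and of the brighter background in these ratios was not tested.

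The genes nearest to each of the 4, by distance over the log2 intensities of the 2 arrays, were of varied function. Nearest to Fgf2 were Tnfrsf12a, a receptor of the TNF family, at a distance of 0.12, the transcription factor gene Runx3 (0.17) and Dbn1 (0.17), which encodes the actin-binding protein drebrin. Bdnf lay nearest to Dab1, the adaptor of Reelin signalling, at 0.025, then to the glycosyltransferase gene B3gnt5 (0.078) and to Rims1 (0.22), which encodes a presynaptic scaffold. Gdnf had no neighbour as close, with Atoh1 at 0.18, Dcamkl1 (now Dclk1) at 0.29 and Sema6a at 0.32. Unlike Gdnf, Atoh1 was called present on neither array, and its spot was dimmer than its own background on both (0.867 and 0.866 times). For Gfra3 the nearest were Hesx1 (0.12), Ppp1r9b (0.12) and Gdf7 (0.13), all called present in CNP-hEGFR only. With 2 arrays, such closeness means 2 similar readings and no more.

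Position on the array was recorded beside these values. Bdnf lies at the right edge, between a Ppia spot above it (33673 in wild-type, 46894 in CNP-hEGFR) and the bright spot of Chrd, the BMP antagonist chordin, below it (57772 and 64974). Its left neighbour Bcr read 5149 and 9483. Of the 4 spots that adjoin Fgf2 above, below, left and right, the brightest in wild-type, Fgf5, read 4936. Gdnf sits in the next line, 1 column to the right of Fgf2, and Gfra1, Gfra2 and Gfra3 follow it in that order. The 8 other genes of that line outside the 4 had a median unscaled fold of 1.93, close to the 1.99 of all genes.

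The GDNF family had 2 ligands and 4 receptor genes on the array. Among the ligands, Artn was not called present. It read 8662 and 9302, a 1.07-fold difference, and was dimmer than its local background on both arrays. All 4 receptor genes had a larger unscaled fold than Gdnf and Artn, but so did most genes, since Gdnf ranked 183 of 254. Gfra2, which encodes the co-receptor for neurturin, was called present on both arrays and went from 10940 to 24710, or 2.26-fold. Gfra1 read 2979 and 9112, and Ret, the kinase shared by the family, read 1846 and 5441. Neither had a present call on either array, and both were dimmer than their own background in wild-type, Gfra1 at 0.930 times and Ret at 0.895 times. In CNP-hEGFR they stood at 1.49 and 1.33 times.

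Spot over background was higher in CNP-hEGFR for all 4 receptor genes and lower for Gdnf. It was also slightly higher for Artn, and it was higher for 57.9% of genes. Gfra1 and Ret were not called present on either array and Gfra3 was not in wild-type, so of the receptor genes only Gfra2 was measured on both sides. Gfra1, Gfra2 and Gfra3 share a stretch of 1 line, but Ret lies 9 lines below. The 11 other genes touching the Gfra1 to Gfra3 spots had a median unscaled fold of 1.91, against 1.99 for all genes, and the 11 other genes in the line of Ret had 2.49. Of the 4 receptor genes, only Gfra2 was brighter than the dimmer blank spot, and on both arrays. Relative to the median gene, the log2 ratio was 0.19 for Gfra2.

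**Figure D4:**
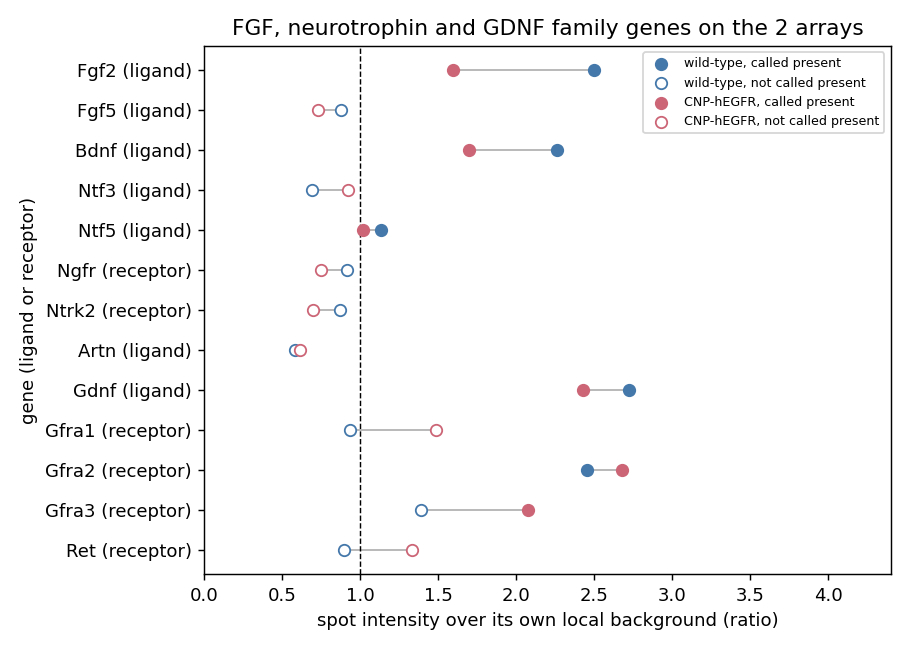
Spot intensity over its own local background for 13 FGF, neurotrophin and GDNF family genes, in wild-type (blue) and CNP-hEGFR (red), filled where called present and open where not, with a dashed line at 1. Fgf2, Bdnf and Gdnf move left from wild-type to CNP-hEGFR, and Gfra1, Gfra2, Gfra3 and Ret move right.

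Of the neurotrophin family, 3 ligands and 2 receptor genes are described, and Bdnf was the 1 ligand of these with a ratio. Ntf5, the gene of another neurotrophin, was called present on both arrays but read 65255 and 65535, at the ceiling, with a bleeding warning on both and a local background of 57661 and 64564. It therefore has no ratio. Ntf3, also a neurotrophin gene, read 9433 and 27338 and was not called present. Its spot was dimmer than its local background on both arrays, at 0.691 and 0.923 times. Of the BDNF receptors, Ntrk2 read 4901 and 7105 and Ngfr read 4100 and 9678. Both lay below their own background on both arrays and had no present call.

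The FGF family was represented by Fgf2 and Fgf5. Fgf5 read 4936 and 8551, was dimmer than its local background on both arrays and had no present call. FGF receptor genes were not analysed here. Over the genes described from the 3 families, 5 of 13 were called present in wild-type and 6 in CNP-hEGFR. The shares over all 263 genes were 34.6% and 39.2%. The median log2 ratio of the 13 genes was 0.64, against 0.83 for all 263. Without Fgf2, Bdnf, Gdnf and Gfra3 it was 1.02 over the remaining 9. These medians take every spot, called present or not, with Ntf5 at the ceiling included. Of the 9 genes, 7 were called present on neither array, as were 157 of all 263. Only Gfra2 had a ratio by the rule used above, and 1.02 is its own log2 value.

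The tissue label was set against marker genes. Nes, the nestin gene of neural progenitors, and Dcx, a gene of migrating neuroblasts, were called present on both arrays, as was Olig1 of the oligodendrocyte lineage. Of the listed markers, 1 of 2 stem cell and astrocyte genes was called present in wild-type and 2 in CNP-hEGFR. The counts were 2 of 3 neuroblast and neuron genes and 3 of 4 oligodendrocyte lineage genes on each array. Over all genes, 34.6% were called present in wild-type and 39.2% in CNP-hEGFR. Map2, also a listed neuron gene, is on the array under its older symbol Mtap2 and was not counted. Its spot was dimmer than its local background on both arrays, at 0.928 and 0.684 times. Cspg4, the NG2 gene of oligodendrocyte progenitors, was not called present on either. Nes read 18454 and 39543 and Olig1 read 21792 and 39301, unscaled folds of 2.14 and 1.80. The fold was 2.40 for Dcx, 1.33 for Olig2 and 0.966 for Stmn1, which encodes stathmin and was the 1 listed marker with a dimmer spot in CNP-hEGFR. Olig2 is among the 9 genes whose deposited normalized value does not follow from the intensity. Nkx2-2 was called present on both arrays although its spot was dimmer than its local background, at 0.671 and 0.889 times. Markers of microglia, blood and vessels were not analysed here, and the part of cell makeup in these ratios was not tested.

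RefSeq promoter windows are shown for the 3 ligands, whose ratios shared a direction with Gapdh and Ppia scaling and with array-median scaling. They did not share one with the local background subtracted, at -0.36 for Fgf2, 0.16 for Bdnf and 0.51 for Gdnf on the log2 scale. The arrays measured RNA and not promoter use, and the deposited tables name 1 transcript accession per gene. Each window runs from 250 bases before to 50 after a transcription start in build GRCm38.p6, on the + strand, 5′ to 3′. Fgf2 has 1 such window, Gdnf 2 and Bdnf 7, and the most upstream of each gene is printed, at chr3:37348403-37348702 for Fgf2, chr2:109674450-109674749 for Bdnf and chr15:7809798-7810097 for Gdnf. Capitals mark a GC box (GGGCGG) or a TATA box (TATAAA), searched on both strands.
Fgf2: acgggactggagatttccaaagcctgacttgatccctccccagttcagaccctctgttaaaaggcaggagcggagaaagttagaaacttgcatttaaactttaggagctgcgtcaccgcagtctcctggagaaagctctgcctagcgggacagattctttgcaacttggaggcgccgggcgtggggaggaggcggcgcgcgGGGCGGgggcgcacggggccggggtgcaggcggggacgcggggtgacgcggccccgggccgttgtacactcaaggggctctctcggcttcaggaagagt
Bdnf: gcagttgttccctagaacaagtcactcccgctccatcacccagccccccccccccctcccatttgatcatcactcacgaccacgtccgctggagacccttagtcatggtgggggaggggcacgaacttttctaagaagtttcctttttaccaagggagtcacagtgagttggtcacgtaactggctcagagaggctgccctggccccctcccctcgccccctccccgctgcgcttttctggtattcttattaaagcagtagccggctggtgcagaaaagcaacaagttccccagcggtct
Gdnf: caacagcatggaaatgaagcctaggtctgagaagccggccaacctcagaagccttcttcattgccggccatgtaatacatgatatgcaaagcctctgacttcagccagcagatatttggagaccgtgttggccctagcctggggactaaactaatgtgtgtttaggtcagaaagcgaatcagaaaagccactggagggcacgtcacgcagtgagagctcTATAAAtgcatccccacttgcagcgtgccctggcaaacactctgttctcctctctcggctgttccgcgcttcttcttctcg

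The Fgf2 window held 1 GC box, a motif found in 35.7% of 32841 mouse windows of the same length, and the Gdnf window held 1 TATA box, 31 bases before the start, a motif found in 13.6%. The printed Bdnf window held neither, but 2 of the 7 Bdnf windows held a GC box, and the second Gdnf window held no TATA box. None of the 3 printed windows held the full cAMP response element TGACGTCA, found in 1.79%. The Fgf2 window had 62.7% G and C and 24 CpG pairs. The Bdnf window had 57.3% and 11, and the Gdnf window 51.7% and 11. The medians of all windows were 52.7% and 7, so all 3 printed windows held more CpG pairs than the median one, while the Bdnf windows ranged from 2 to 13. Which start the tissue uses is not given in the sources used here.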

How the data were processed

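RNA of 1 wild-type and 1 CNP-hEGFR SVZ sample was profiled on an Oligo GEArray read by autoradiography, per the series' design text. The deposited intensity is the spot average, with local background beside it and neither subtracted, per the file headers. The deposited normalized value is a ratio to 9 normalization spots after the array minimum was subtracted, and 1.5 is the present-call threshold that the headers name. The design text names GEArray Expression Analysis Suite 2.0. Genome build and probe sequences are not given in the sources used here.

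Intensities were scaled on each array to its averaged Gapdh and Ppia spots. β-actin, which the design text adds, was not used here. Genes present on at least 1 array got a ratio, or a bound where 1 array lacked the call or stood at 99% of the ceiling or more. Ranks of folds leave out 9 genes whose normalized value differs from that recomputed from the intensity by more than 0.001. Spot over background used no further scaling. The named genes are the 4 genes, their 3 nearest and their adjacent spots, and fixed pathway and marker lists. Members and lists were chosen with earlier results of these data known. One gene of the pathway lists is not reported here and is left out of their counts. Accessions of 20 of the 23 remaining listed growth signal genes, all 4 members included, matched RefSeq (GRCm38.p6). The ratio step was tested on simulated data with the true scale factor supplied and local background not used. That test does not bear on the choice of scaling or on the background. Python 3.11.15, numpy 2.4.6 and pandas 2.3.3 were used.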

Additional observations from a re-analysis of the deposited data

Results flagged for a closer look

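The local background around the 4 spots was not subtracted from the intensities that enter the main ratios. It had a median CNP-hEGFR over wild-type fold of 1.88, with a range from 1.71 to 2.02. Of the control spots, blanks included, 10 lay under the ceiling, and their own folds ran from 1.42 to 3.13. The part of either in the ratios of these genes was not tested.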

How the results depend on the processing

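The log2 ratios of Fgf2, Bdnf, Gdnf and Gfra3 were 0.17, 0.45, 0.45 and 1.11 with Gapdh and Ppia scaling. They were 0.32, 0.60, 0.61 and 1.27 with no scaling and 0.12, 0.41, 0.44 and 1.53 with the authors' normalized values. They were -0.80, -0.52, -0.52 and 0.14 with array-median scaling, and -1.12, -0.84, -0.83 and -0.02 (no floor for Gfra3, exactly -0.0212) with control and blank spot scaling. Division by the local background gave -0.65, -0.41, -0.17 and 0.58. Subtraction of the local background, chosen after seeing the data, gave -0.36, 0.16, 0.51 and 2.31, and Gfra3 without its floor, also chosen after seeing the data, had 1.27. Members at least 2-fold higher numbered 1 at first and 0 under array-median scaling, control and blank spot scaling, and local background division. Of the 101 genes with a ratio or bound, 50 (49.5%) were at least 2-fold higher at first. With array-median scaling it was 8 of 99 (8.08%). The count was 3 with control and blank spot scaling and 2 with local background division. It was 65 with no scaling, 56 with the authors' normalized values and 96 when all gene spots entered. Genes at least 2-fold lower numbered 2 at first and 8 with array-median scaling. They numbered 14 with control and blank spot scaling, Fgf2 among them, and 6 with local background division. Between scalings by 1 factor per array, the log2 ratios of the 3 ligands shift by construction with that factor. It was 1.11 for Gapdh and Ppia, 2.18 for the median gene and 2.72 for the control spots. Why these factors differ was not tested, nor was the cause of the other shifts. No replicate could be left out, and no paired analysis was possible because each group has 1 array. The part of the ceiling was not tested, and Gfra3 lay below both blank spots.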

Other observations

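A list of 10 further growth factor and receptor genes, which does not cover all of those on the array, was also read. Of the 10, 2 were called present in wild-type and 1 in CNP-hEGFR, against 34.6% and 39.2% of all genes. Nrp2, which encodes a neuropilin that binds semaphorins and VEGF, was called present on both arrays and read 7567 in wild-type and 23939 in CNP-hEGFR. Its ratio after Gapdh and Ppia scaling was 2.84-fold, and its spot stood 1.83 and 2.38 times above its own background. With that scaling, 49.5% of the genes with a value were at least 2-fold higher. With array-median scaling the log2 ratio of Nrp2 was 0.54, which is under 2-fold. Vegfa, the gene of its ligand, was called present in wild-type only, although its spot read 5090 there and 12143 in CNP-hEGFR, where it was slightly dimmer than its background (0.967 times). Igf1 read 2517 and 7292 without a present call, and the chemokine gene Cxcl12, which read 2082 and 1977, was the 1 gene of the 10 with a dimmer spot in CNP-hEGFR.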
